A study of Mus musculus with 6 samples.

Results

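Lipid storage was examined through 10 genes that build, coat or break down triglyceride: Gpam, Lpin1, Lpin2, Dgat1, Dgat2, Plin2, Plin3, Pnpla2, Mgll and Hilpda. They were chosen by gene symbol, and all 10 of them were found among the 24421 genes of the count table. The libraries come from a stable, transposase-integrated population of 4T1 cells, a mouse breast carcinoma line of strain BALB/cfC3H, named 4T1-tetL1(GLucAI). All 6 libraries are of cells that carry a recoded mouse LINE-1 (L1) retrotransposon with a Gaussia luciferase readout, and firefly luciferase, driven from a bidirectional doxycycline-responsive promoter. An EF1α promoter constitutively drives blasticidin resistance together with the Tet-On 3G activator, so both groups carry the whole cassette. The cells were selected as a population and not described as a single clone. The untreated group (3 libraries; its treatment tag reads vehicle) received no doxycycline, and the doxycycline group (3 libraries) received 400 ng/mL for 48 h. Cells without the cassette were not analysed here. Effects of doxycycline itself, of L1 and of the firefly luciferase driven with it therefore cannot be told apart. The cassette transcript was not analysed here either, and directions rest on the library labels.

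Triglyceride is made in the endoplasmic reticulum by adding fatty acyl chains to a glycerol backbone in steps. Glycerol phosphate acyltransferases such as Gpam start the route, lipins remove the phosphate from phosphatidate to give diacylglycerol, and Dgat enzymes add the last chain. The product is stored in droplets coated by perilipins, and it is broken down again by Pnpla2 (adipose triglyceride lipase) and, after further steps, by Mgll (monoacylglycerol lipase), while Hilpda inhibits Pnpla2. Tumor cells use such droplets to buffer fatty acids, and Hilpda and Plin2 are well known to respond to low oxygen and to fatty acid load.

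Of these 10 genes, Lpin1 alone passed the test. It rose from 35.4 ± 1.58 CPM (counts per 1000000 TMM-scaled counts of a library; SD, n = 3) in untreated libraries to 47.3 ± 0.904 CPM in doxycycline libraries, a fold of 1.34 with a 95% interval of 1.22 to 1.46. The other 9 genes, among them its relative Lpin2, both Dgat enzymes and both perilipins, did not pass. In these bulk libraries a change in the share of cells of a type and a change in RNA per cell cannot be told apart. All 10 were kept by the filter on low counts. Members called higher were thus 1 of 10 when calls were set at 0.05 after Benjamini-Hochberg adjustment over all genes (quasi-likelihood test of edgeR), where 0.925% of the 13084 genes tested were called higher. Members called lower were 0 of 10, where the share over all genes was 2.16%. At an unadjusted p under 0.05 there were 2 members, Lpin1 and Plin2, against 16.2% of all genes, and the DESeq2 Wald test and limma voom each called 1 member higher, Lpin1, and 0 lower. The groups did not overlap for 1 of 10 members, where this held for 21.3% of all genes. The median log2 fold change of the members was 0.02, with 5 above and 5 below 0, and that of all genes tested was 0.002.

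**Figure D1:**
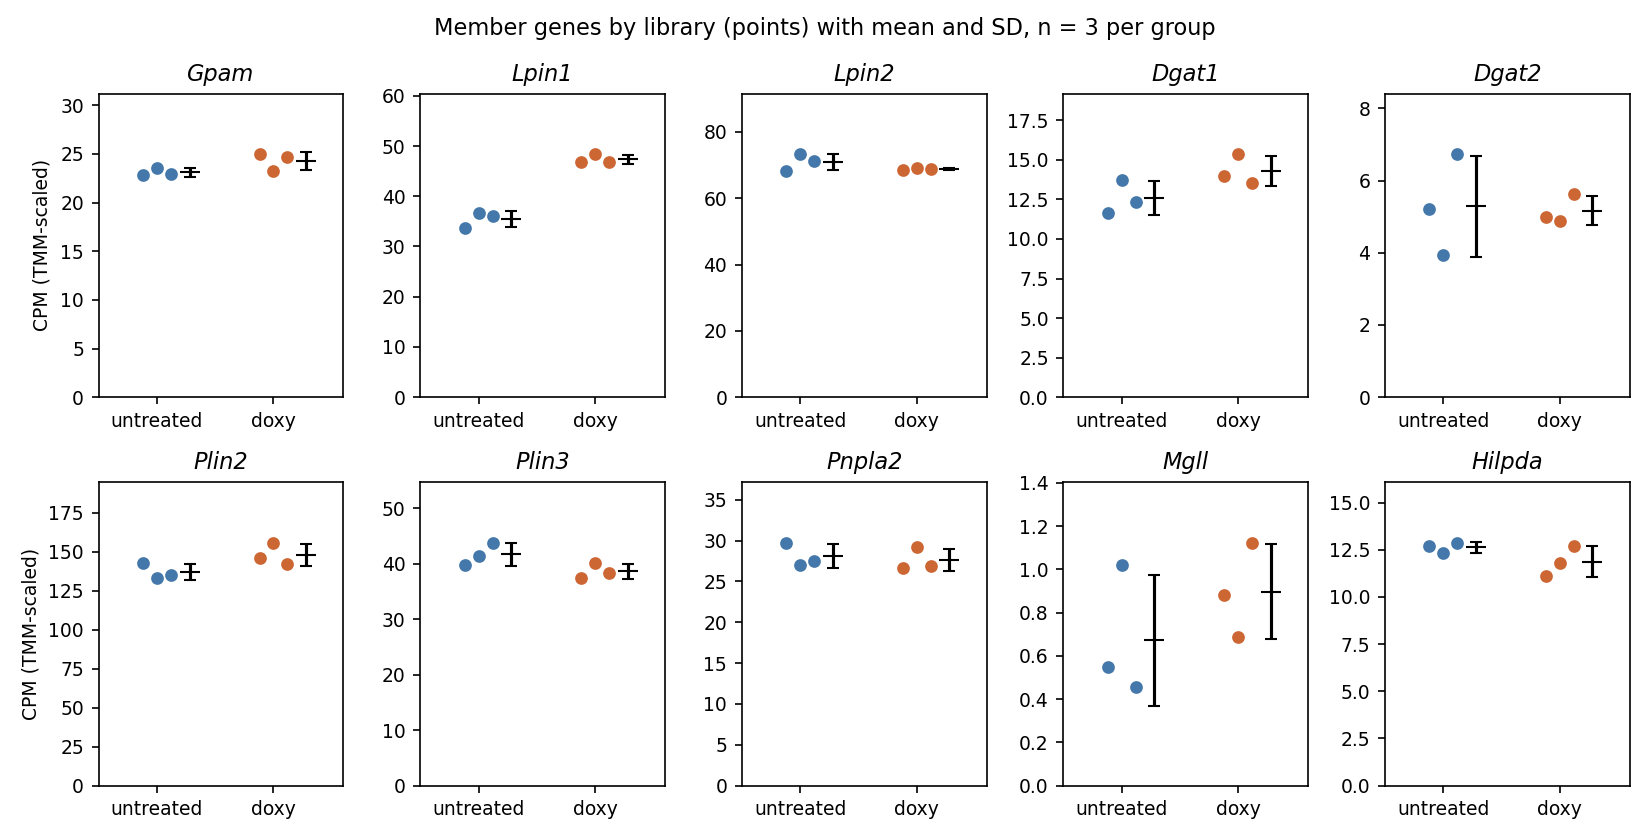
Each panel plots one member gene: the y axis is CPM scaled by TMM and starts at 0, points are the 3 untreated (blue) and 3 doxycycline (orange) libraries, and bars are mean and SD. In Lpin1 the doxycycline libraries (46.8 to 48.4 CPM) lie above the untreated ones (33.6 to 36.6 CPM), and in the other 9 panels the groups overlap.

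The lipins Lpin1 and Lpin2 are shown with the sequence around a transcription start because Lpin1 is the member that passed the test and Lpin2 its most abundant relative. RefSeq windows (GRCm38.p6, from 250 bases before to 50 bases after an annotated start) were found for 8 of the 10 members, 13 windows in all. The Lpin1 window (chr12:16610917-16611216, minus strand) lies inside the annotated span of the gene, which reaches further upstream. The Lpin2 window (chr17:71183282-71183581, plus strand) is the most upstream of its 3 windows. Capitals mark matches, on either strand, to any of 4 short motifs: TCACNCCAC (the consensus of the sterol regulatory element), CACGTG (an E-box), ACGTG (the core of the hypoxia response element, also contained in CACGTG) and AGGTCA (a nuclear receptor half-site).
Lpin1: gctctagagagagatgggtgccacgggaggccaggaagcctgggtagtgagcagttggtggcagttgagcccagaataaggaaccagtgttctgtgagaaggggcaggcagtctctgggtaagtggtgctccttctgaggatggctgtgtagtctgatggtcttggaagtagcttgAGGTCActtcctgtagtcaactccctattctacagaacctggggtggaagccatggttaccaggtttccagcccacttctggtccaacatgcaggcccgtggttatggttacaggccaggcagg
Lpin2: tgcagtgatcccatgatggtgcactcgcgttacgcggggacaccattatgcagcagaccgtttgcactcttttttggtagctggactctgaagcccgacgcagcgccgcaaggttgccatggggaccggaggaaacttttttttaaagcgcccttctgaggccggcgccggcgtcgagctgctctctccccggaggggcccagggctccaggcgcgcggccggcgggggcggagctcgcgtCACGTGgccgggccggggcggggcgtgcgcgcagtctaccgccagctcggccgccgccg
The Lpin1 window held 1 copy of AGGTCA and none of the other motifs, and the Lpin2 window held 1 CACGTG, whose letters also contain ACGTG. Over all 32851 windows of this length, AGGTCA was present in 16.3%, CACGTG in 7.15%, ACGTG in 19.6% and TCACNCCAC in 1.24%. Among the 13 member windows the numbers were 3, 3, 6 and 0 in the same order. These matches describe letters only, in one short window per start.

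Lpin1 encodes a phosphatidate phosphatase that also acts in the nucleus as a transcriptional coactivator, and its transcription is known to respond to SREBP, the sterol-sensing factors. The gene (chromosome 12, 16535669 to 16653903, minus strand, protein-coding) shares no exon base with another annotated gene. Its raw counts were 1476, 1220 and 1351 in untreated replicates 1 to 3 and 1487, 1975 and 1793 in doxycycline replicates 1 to 3. Scaled to library size these were 33.6, 36.6 and 36.1 CPM against 46.8, 48.4 and 46.8 CPM. All 3 doxycycline libraries were above all 3 untreated libraries. The log2 fold change was 0.42 with a standard error of 0.06 (adjusted p 0.000304 by edgeR). The call was kept in each of the 6 fits that left out a library, with log2 fold changes from 0.38 to 0.44 and adjusted p from 1.23e-05 to 0.00696.

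Lpin2 (chromosome 17, 71183532 to 71249818, plus strand), which encodes an enzyme of the same activity, stood at 68.3, 73.3 and 71.2 CPM in untreated libraries and 68.5, 69.1 and 68.7 CPM in doxycycline libraries. These groups overlapped. The log2 fold change was -0.04 with a standard error of 0.05 (adjusted p 0.747 by edgeR), and its 95% interval on the linear scale was 0.898 to 1.05, and the fold of 1.34 of Lpin1 lies outside it. Lpin3, the remaining family member, had 8.26 ± 0.56 and 9.18 ± 1.25 CPM (log2 fold change 0.15, edgeR adjusted p 0.598).

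Because a ratio within a library does not depend on scaling between libraries, Lpin1 counts were also divided by Lpin2 counts. The ratio was 0.492, 0.499 and 0.507 in untreated replicates 1 to 3 and 0.683, 0.700 and 0.681 in doxycycline replicates 1 to 3. The libraries of each group were close to each other and the groups did not overlap, though no share of non-overlapping ratios over other genes was computed. The log2 ratio differed by 0.46 between group means, from -1.002 ± 0.0206 to -0.54 ± 0.0210 (SD, n = 3; exact permutation test, two-sided, p = 0.1, the smallest that 3 against 3 libraries can give, and 0.25 adjusted over 5 pairs). Per kilobase of exon, Lpin1 made up 28.9, 29.9 and 29.9% of the summed lipin transcripts (Lpin1, Lpin2 and Lpin3) in untreated libraries and 35.3, 36.6 and 36.4% in doxycycline libraries. Lpin2 stayed the most abundant lipin, with 58.6 ± 0.64% and 51.9 ± 0.88%.

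**Figure D2:**
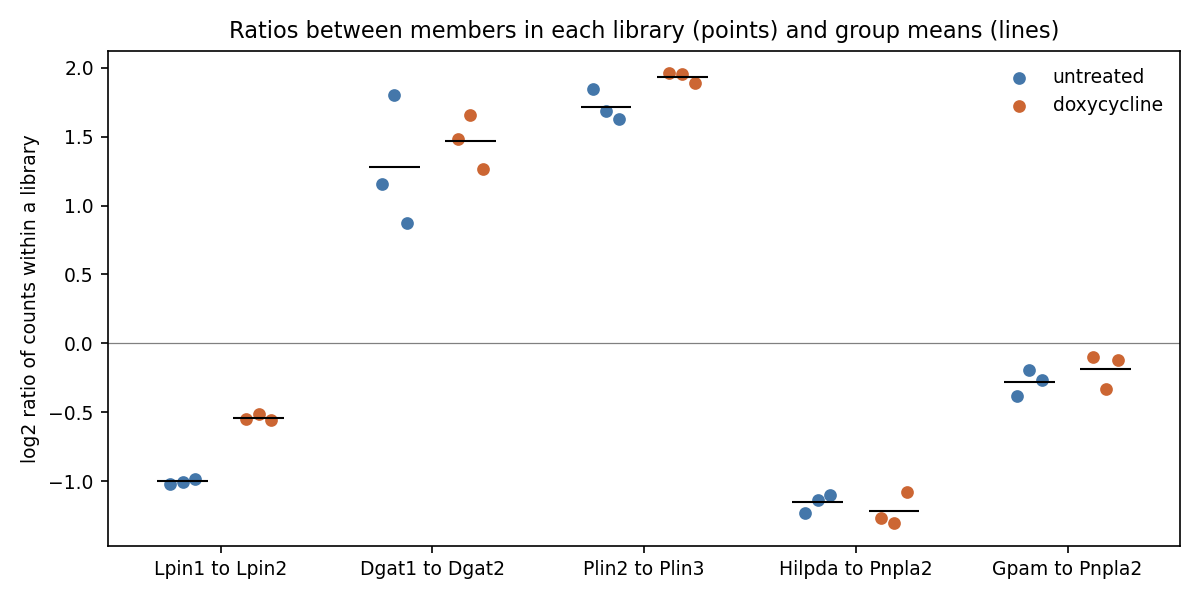
The y axis gives the log2 ratio of raw counts of one member to another within each library; points are libraries (blue untreated, orange doxycycline) and lines are group means. The Lpin1 to Lpin2 points lie near -1.002 and -0.54 with no overlap, the Plin2 to Plin3 groups are also apart, and the remaining 3 pairs overlap.

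Gpam (chromosome 19, 55067635 to 55127319, minus strand), the mitochondrial enzyme that adds the first acyl chain, stood at 22.8, 23.6 and 22.9 CPM in untreated libraries and 25.0, 23.2 and 24.7 CPM in doxycycline libraries. One doxycycline library fell among the untreated ones. The fitted log2 change was 0.07 with a standard error of 0.07 (adjusted p 0.69 by edgeR), with a fold interval of 0.945 to 1.17. Gpam was not the main transcript of its family. Per kilobase of exon, Gpat4 (listed as Agpat6), an enzyme of the endoplasmic reticulum for the same step, made up 79.4 to 82.5% of the 4 acyltransferases in each library, Gpam 9.04 to 9.91%, Gpat3 (listed as Agpat9) 7.56 to 9.84% and Gpat2 at most 1.13%. None of these relatives passed the test, with edgeR adjusted p of 0.44 for Gpat4, 0.673 for Gpat3 and 0.433 for Gpat2.

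The final acylation step is carried out by Dgat1 and Dgat2, unrelated proteins of the same activity. Dgat1 (chromosome 15, 76502012 to 76512021, minus strand) had 11.6, 13.7 and 12.3 CPM in untreated libraries and 14.0, 15.4 and 13.5 CPM in doxycycline libraries. Untreated replicate 2 lay above doxycycline replicate 3, so the groups overlapped by that library. On the log2 scale the change was 0.19 with a standard error of 0.10 (adjusted p 0.354 by edgeR), with a fold interval of 0.989 to 1.32 that takes in part of the range of Lpin1. Dgat2 (chromosome 7, 99153663 to 99182713, minus strand) was lower and more scattered, at 5.21, 3.93 and 6.73 CPM in untreated libraries and 5.00, 4.87 and 5.62 CPM in doxycycline libraries. The doxycycline libraries all lay within the untreated range. Its log2 fold change of -0.04 with a standard error of 0.17 (adjusted p 0.942 by edgeR) became 0.17 without untreated replicate 3 (edgeR adjusted p 0.789), so the fit gave no stable direction for Dgat2. The log2 ratio of Dgat1 to Dgat2 averaged 1.28 ± 0.478 and 1.47 ± 0.194 (exact permutation test, p = 0.6, n = 3 each, 0.6 adjusted over 5 pairs).

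Plin2, the perilipin that coats droplets in most cell types, was the most abundant member. Its levels were 143, 133 and 135 CPM in untreated libraries and 146, 156 and 142 CPM in doxycycline libraries. Untreated replicate 1 lay between the doxycycline libraries. The gene (chromosome 4, 86626910 to 86670217, minus strand) had a log2 fold change of 0.11 with a standard error of 0.05, an unadjusted p of 0.04 and an edgeR adjusted p of 0.278, so it did not pass. Its fold interval was 1.004 to 1.16, short of the interval of Lpin1. Plin3 (chromosome 17, 56278962 to 56290511, minus strand), a perilipin that moves from the cytosol onto young droplets, had 39.8, 41.5 and 43.8 CPM in untreated libraries and 37.5, 40.2 and 38.3 CPM in doxycycline libraries, again overlapping by 1 library. The fitted log2 change was -0.11 with a standard error of 0.06 (adjusted p 0.429 by edgeR).

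Neither perilipin passed the test, and the exact test of their ratio could not pass the threshold with 3 against 3 libraries. The groups did not overlap in the ratio of Plin2 to Plin3. In CPM, 21.3% of all single genes tested also showed no overlap, and no such share was computed for ratios. Plin2 counts were 3.59, 3.22 and 3.09 times Plin3 counts in untreated libraries and 3.89, 3.87 and 3.70 times in doxycycline libraries. The lowest doxycycline value was above the highest untreated value. The log2 ratio averaged 1.72 ± 0.113 and 1.93 ± 0.0404, a difference of 0.22 (exact permutation test, two-sided, p = 0.1, n = 3 each, the smallest possible, and 0.25 adjusted over 5 pairs). Per kilobase of exon, Plin2 made up 85.4 to 88.0% of perilipin transcripts in every library. Plin4 had 0.959 ± 0.262 and 1.10 ± 0.0489 CPM (edgeR adjusted p 0.798), Plin5 had at most 6 counts in a library, and Plin1, the perilipin of fat cells, had 1 count in 1 library.

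None of the breakdown genes among the members passed the test. Pnpla2 (chromosome 7, 141455188 to 141460743, plus strand) stood at 29.7, 27.0 and 27.6 CPM in untreated libraries and 26.7, 29.2 and 26.9 CPM in doxycycline libraries, with the groups interleaved. The fitted log2 change was -0.03 with a standard error of 0.07 (adjusted p 0.898 by edgeR) and the fold interval was 0.884 to 1.09. Hilpda (chromosome 6, 29272488 to 29275449, plus strand), the inhibitor of Pnpla2, had 12.7, 12.3 and 12.9 CPM against 11.1, 11.8 and 12.7 CPM. Doxycycline replicate 3 lay within the untreated range. On the log2 scale the change was -0.09 with a standard error of 0.10 (adjusted p 0.72 by edgeR) and its fold interval 0.818 to 1.08. The ratio of inhibitor to lipase was likewise unresolved, with Hilpda to Pnpla2 log2 ratios of -1.15 ± 0.0678 and -1.22 ± 0.12 (exact permutation test, p = 0.5, n = 3 each, 0.6 adjusted over 5 pairs). The Gpam to Pnpla2 log2 ratios, which set an enzyme of synthesis against one of breakdown, averaged -0.28 ± 0.0945 and -0.18 ± 0.127 (exact permutation test, p = 0.3, n = 3 each, 0.5 adjusted over 5 pairs).

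Mgll (chromosome 6, 88724412 to 88828360, plus strand), which releases the last fatty acid and glycerol, was barely transcribed. Its untreated libraries held 24, 34 and 17 counts and its doxycycline libraries 28, 28 and 43, or 0.547, 1.02 and 0.454 CPM against 0.881, 0.686 and 1.12 CPM. The groups overlapped, and 152 of its exon bases are shared with Gm26588 on the opposite strand. The log2 fold change was 0.43 with an SE of 0.37 (edgeR adjusted p 0.617) and its fold interval ran from 0.789 to 2.30, so a change was not detectable at this depth. Leaving out 1 library at a time moved the log2 value from 0.22 (without untreated replicate 3) to 0.83 (without untreated replicate 2), with 0.23 without doxycycline replicate 3. Abhd6, another lipase that cleaves monoacylglycerol, was far higher, at 8.43 ± 0.388 CPM per kilobase of exon in untreated libraries against 0.14 ± 0.0629 for Mgll. Abhd5, the activator of Pnpla2, had 43.2 ± 2.70 and 40.6 ± 1.84 CPM (log2 fold change -0.09, edgeR adjusted p 0.531). G0s2, a further inhibitor of Pnpla2, was at 0 in every library, and a count of 0 allows at most 0.0944 CPM in the smallest one (counting error only).

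**Figure D3:**
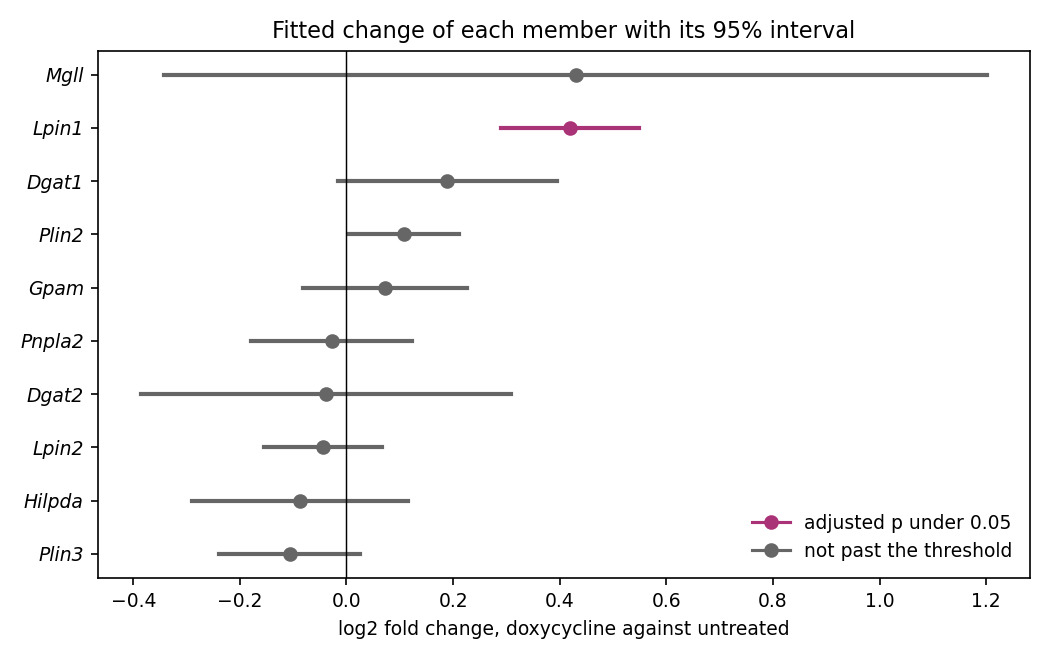
The x axis is the fitted log2 fold change of doxycycline against untreated libraries for each member (point) with its 95% interval (line); purple marks an adjusted p under 0.05 and grey the rest. Lpin1, at 0.42, is the only purple gene, and Mgll, at 0.43, has the widest interval.

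Levels were compared between genes per kilobase of exon (union of exons, GENCODE M21), since long transcripts collect more reads. Plin2 was first, at 70.7 to 82.5 CPM per kilobase over the 6 libraries, above 94.5% of 12605 tested genes with a gene model. A group of 4 followed whose ranges overlapped and whose order is not resolved: Hilpda (10.1 to 11.7), Lpin2 (10.9 to 11.7), Plin3 (10.3 to 12.02) and Pnpla2 (10.2 to 11.3). Dgat1 (6.15 to 8.13) and Lpin1 (5.43 to 7.81) came next and overlapped each other. Gpam (3.59 to 3.93), Dgat2 (1.74 to 2.97) and Mgll (0.0942 to 0.233) were each below the gene before them in every library. In untreated libraries Lpin1 averaged 5.72 ± 0.256 and Dgat1 6.65 ± 0.569 CPM per kilobase, and in doxycycline libraries 7.64 ± 0.146 and 7.57 ± 0.505.

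**Figure D4:**
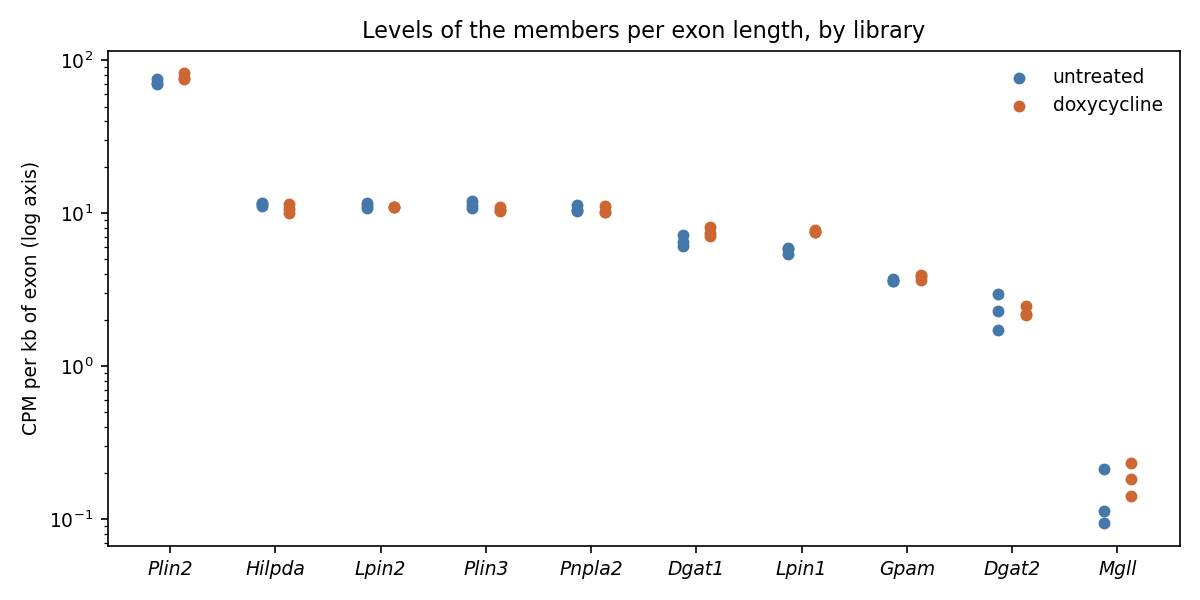
The y axis, on a log scale, is CPM per kilobase of exon in each library (blue untreated, orange doxycycline), with genes ordered by their median over the 6 libraries. Plin2 stands at 70.7 to 82.5, 4 genes lie together near 11, and Mgll lies lowest at 0.0942 to 0.233.

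Genes around the members were described from 8 lists of lipid storage and its branches, 116 genes in all, of which 90 were tested. Of the 80 tested genes that are not members, 4 were called higher and 3 lower, where 0.925% and 2.16% of all genes tested were. At an unadjusted p under 0.05 there were 14, or 17.5%, near the 16.2% of all genes. Their median log2 fold change was 0.03, against 0.002 over all genes tested. In the synthesis list 1 of 14 tested genes, Lpin1 itself, was called higher and 0 lower (median 0.06). The Agpat enzymes that add the second acyl chain all stayed short of the threshold. At an unadjusted edgeR p under 0.05 the synthesis list had 1 gene (7.14%), against 16.2% of all genes. The lists of fatty acid uptake and activation (12 tested, median 0.05), sterol esters (4 tested, median -0.07) and PPAR-responsive lipid genes (12 tested, median -0.02) had 0 calls in either direction, with 1, 0 and 2 genes at an unadjusted p under 0.05 (8.33, 0 and 16.7% of those tested, against 16.2% of all genes). DESeq2 and limma voom likewise gave 0 calls in these lists.

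Among regulators, 2 of 14 tested genes were called higher and 1 lower, where 0.925% and 2.16% of all genes tested were. At an unadjusted edgeR p under 0.05 there were 4 regulators, or 28.6%, against 16.2% of all genes. Insig1, a membrane protein that holds SREBP back and is itself an SREBP target, rose from 129 ± 3.09 to 169 ± 2.89 CPM (a log2 change of 0.39 ± 0.05 SE, adjusted p 1.76e-05 by edgeR), in 3 of 3 doxycycline libraries. Srebf2, the sterol-regulated SREBP gene, rose from 163 ± 1.52 to 185 ± 11.1 CPM (log2 fold change 0.18, edgeR adjusted p 0.0399). Srebf1, the SREBP gene tied to fatty acid and triglyceride synthesis, was at 84.8 ± 3.01 and 84.9 ± 5.06 CPM (log2 fold change 0.003, edgeR adjusted p 0.987). Cebpb, a factor of fat cell differentiation, fell from 55.7 ± 2.79 to 47.5 ± 2.36 CPM (log2 fold change -0.23, edgeR adjusted p 0.04). The calls of Srebf2 and Cebpb were each lost in 4 of the 6 fits that left out a library, namely without any one of the untreated replicates or doxycycline replicate 3 (edgeR adjusted p from 0.133 to 0.211 and from 0.0724 to 0.231). The Srebf2 call was also lost with limma voom (0.0508), with scaling by library size only (0.0554) and with the replicate block (0.0504), and that of Cebpb with the GC content and length correction (0.0893, adjusted p by edgeR). Ppard had 90.0 ± 2.89 and 94.6 ± 4.21 CPM (edgeR adjusted p 0.532) and Hif1a 366 ± 7.78 and 347 ± 19.6 CPM (edgeR adjusted p 0.437), while Pparg had at most 4 counts in a library and Ppara had 0 in all 6.

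In the branch that leads from phosphatidate and diacylglycerol to phospholipids, 2 of 17 tested genes were called higher and 0 lower. Pcyt2, the enzyme that activates ethanolamine for phosphatidylethanolamine, rose from 42.2 ± 2.90 to 56.1 ± 5.73 CPM (a log2 change of 0.41 ± 0.07 SE, adjusted p 0.0017 by edgeR), close to the 0.42 of Lpin1, and kept its call in all 6 leave-out fits. Dgkd, a kinase that turns diacylglycerol back into phosphatidate, the reverse of the lipin step, rose from 175 ± 4.06 to 199 ± 11.9 CPM (log2 fold change 0.19, edgeR adjusted p 0.0379). The Dgkd call was lost without any one of the untreated replicates or doxycycline replicate 3 (edgeR adjusted p from 0.11 to 0.248) and with scaling by library size only (0.0502). In the lists of breakdown and of droplet coat and assembly, 1 gene each was called lower and 0 higher, of 8 and 11 tested. The shares over all genes were 2.16% lower and 0.925% higher. At an unadjusted edgeR p under 0.05 these lists had 1 and 2 genes (12.5 and 18.2%), against 16.2% of all genes. Lipa, the lysosomal acid lipase, fell from 22.3 ± 1.14 to 16.4 ± 1.47 CPM (a log2 change of -0.43 ± 0.09 SE, adjusted p 0.00592 by edgeR, and 0.0502 without doxycycline replicate 3). Hsd17b11, a droplet-bound dehydrogenase, fell from 18.0 ± 1.14 to 13.4 ± 1.82 CPM (log2 fold change -0.43, edgeR adjusted p 0.0176), a call lost without untreated replicate 1 or 2 or doxycycline replicate 3 (edgeR adjusted p from 0.0845 to 0.105). Lipe and Pnpla3, other lipases of the breakdown list, did not pass (log2 fold changes 0.19 and 0.57, edgeR adjusted p 0.454 and 0.318). Mogat1 and Mogat2, which make diacylglycerol by another route, had at most 7 counts in a library.

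**Figure D5:**
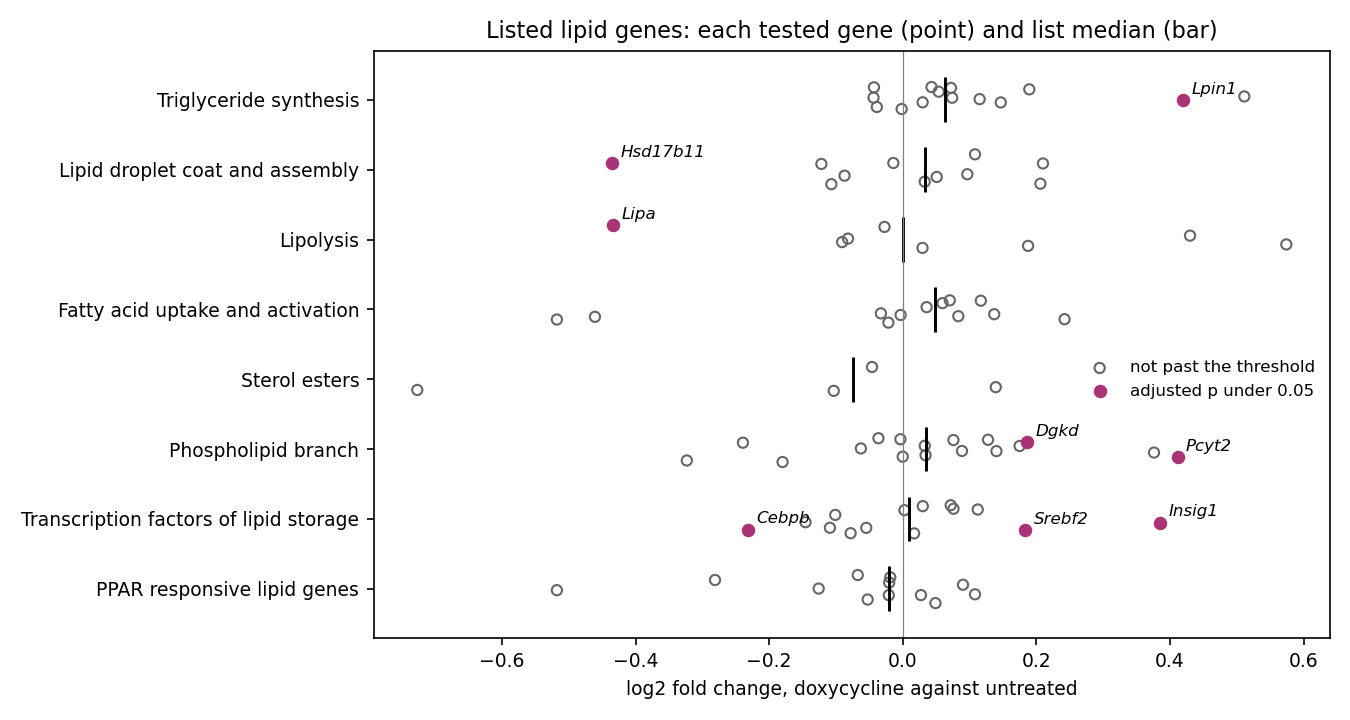
Each point is a tested gene of one of 8 lipid lists, the x axis is its log2 fold change (doxycycline against untreated), bars are list medians, and purple points with a name have an adjusted p under 0.05. The 8 named genes are Lpin1, Pcyt2, Dgkd, Insig1 and Srebf2 on the higher side and Hsd17b11, Lipa and Cebpb on the lower side.

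Library totals ran from 31653464 to 43631312 counts, with overlapping ranges between groups, and 3 counts correspond to 0.0683 to 0.0944 CPM. The cells showed epithelial carcinoma markers such as Krt18 (633 ± 6.995 CPM untreated), Krt8 and Cdh1. Of 9 such markers 2 were called lower, the secreted Lcn2 and Spp1, and 0 higher, where 2.16% and 0.925% of all genes were. The log2 fold changes of 6 markers were above 0 and those of 3 below. The summed level of all 9 was 3323 to 3448 CPM in untreated and 2927 to 3052 CPM in doxycycline libraries. Most of this sum was Spp1, which fell from 1877 ± 44.3 to 1468 ± 30.1 CPM. Of 8 adipocyte markers 7 had a count and Retn had none, with sums of 8.79 to 11.2 and 10.1 to 11.7 CPM, mostly Lipe. Adipoq had at most 3 counts in a library. Of 11 leukocyte, endothelial and fibroblast markers 10 had a count and Adgre1 had none. Their sum was 47.6 to 48.2 CPM in untreated and 37.3 to 39.8 CPM in doxycycline libraries, mostly Pdgfra, which fell from 36.7 ± 1.37 to 27.8 ± 0.669 CPM (edgeR adjusted p 0.000952). The part of these markers in the Lpin1 result was not tested.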

How the data were processed

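Total RNA of 6 libraries (3 untreated, 3 doxycycline), depleted of ribosomal RNA, was sequenced. The authors aligned reads with STAR to mm10/GRCm38 and counted them with featureCounts (Subread 1.6.2, per the submitters' processing notes). They deposited raw counts per gene symbol, not normalized. The strand setting and the treatment of multi-mapping reads are not given in the sources used here, so reads of overlapping genes may be shared. The 6 columns were matched to samples by library code, and groups and replicate numbers were taken from the titles. The replicates are called biological, but nothing says whether they were separate cultures, so p-values measure the spread between these libraries.

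Groups were compared with edgeR 4.0.16 (quasi-likelihood test, R 4.3.3), with TMM scaling, robust estimation, filterByExpr (13084 genes kept) and the group as the only term. P-values were adjusted by Benjamini-Hochberg over all genes at 0.05. The SE was taken as |log2 fold change| over the root of the F statistic, and 95% intervals use the moderated degrees of freedom. Member pairs were compared by a two-sided exact permutation test (scipy 1.17.1). The members, lists and tests were chosen with earlier results of these data known. Alternatives were other scalings, other filters, DESeq2 1.42.0, limma 3.58.1 voom, the replicate number as a block, omission of Rn45s, leaving out each library and, chosen after seeing the data, a correction for GC content and length (models for 96.3% of tested genes). Named genes are the 10 members, up to 5 called genes of each list, fixed paralogs and regulators, and the 3 genes closest in pattern to Gpam and Hilpda. Coordinates and promoter windows are from RefSeq GRCm38.p6, and exon lengths from GENCODE M21 on the same build.

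The test script was also tested on simulated data of known answer. Of simulated log2 changes of 1 and 0.5 in size, 85% and 67% were called. Of all calls, 7.88% were false.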

Additional observations from a re-analysis of the deposited data

How the results depend on the processing

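In the 16 alternatives run, Lpin1 was the 1 member called higher and 0 were called lower. Its log2 fold change ran from 0.38 to 0.44 and its adjusted p from 2.64e-07 to 0.00696. The log2 fold change of Dgat2 changed sign without untreated replicate 3 (0.17, against -0.20 without untreated replicate 2) and without doxycycline replicate 2 (0.003), that of Pnpla2 without untreated replicate 1 (0.0159, against -0.0704 without doxycycline replicate 2), and the Dgat1 to Dgat2 log2 ratio difference without untreated replicate 3 (-0.0119). Neither Dgat2 nor Pnpla2 passed the threshold in any alternative. The exact permutation test of the ratio could not pass it, since its smallest possible p is 0.1. Over the leave-out values the log2 ratio difference ran from 0.45 to 0.47 for Lpin1 to Lpin2, from 0.17 to 0.28 for Plin2 to Plin3 and from -0.01 to 0.45 for Dgat1 to Dgat2. Over all genes, 121 were called higher and 283 lower. The numbers were 210 and 439 without a filter, 370 and 475 with the GC content and length correction, and from 44 to 269 and from 116 to 487 when each library was left out. By library, these were 58 and 141, 70 and 151, and 44 and 116 without untreated replicates 1 to 3, and 207 and 356, 269 and 487, and 66 and 149 without doxycycline replicates 1 to 3. The cause was not tested. Of the 90 listed lipid genes, 5 were called higher and 3 lower. Library size scaling gave 3 higher, and leaving out each library gave from 3 to 6 higher and from 0 to 4 lower. With the replicate block 118 genes were higher and 300 lower, and the log2 fold change of Lpin1 was 0.42, with the call of each member as without the block. Of the 8 listed lipid calls, only that of Srebf2 was lost with the block (adjusted p 0.0504). Same-numbered libraries did not deviate together (correlations of -0.04, -0.004 and 0.02), so no shared effect of the numbers was seen. Whether the numbers pair the cultures is not stated in the labels. Mgll rests on 17 to 43 counts a library.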

Other observations

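By the correlation of log2 CPM over the 6 libraries, the genes closest to Gpam among 9879 genes of at least 5 CPM were Esf1, Fastkd1 and Rbm28 (Pearson r 0.983 to 0.984), and those closest to Hilpda were BC005537, Thtpa and Tpbg (0.975 to 0.995). With 6 libraries and this many genes these values are a description only.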
